A study of Homo sapiens with 6 samples.

Results

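The E2F transcription factors E2F1 to E2F8 and the retinoblastoma proteins RB1 and RBL1 (also called p107) were described in T24 cells, an established human bladder cancer line, after knockdown of UBC9. The 10 genes were taken by symbol from the 58174 genes of the expression tables, and all 10 were high enough to be tested. UBC9 is the conjugating enzyme that attaches the small protein SUMO to its targets. The study compared 3 samples of cells with a control shRNA (shRNA-NC) with 3 samples of cells with an shRNA against UBC9 (shRNA-UBC9). The UBC9 hairpin was delivered by lentivirus from the pLKO.1 vector with selection by puromycin, the vector of the control shRNA is not given in the sources used here, and they give a single hairpin sequence for UBC9, so an effect of that hairpin on other transcripts cannot be told apart from an effect of UBC9. PolyA RNA was sequenced, and the values are RPKM, which divide the reads of a gene by its length and by all mapped reads of the sample. The labels do not say that replicates were separate cultures, so the tests measure the spread between these samples, which may be technical.

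E2F proteins bind promoters of genes for DNA synthesis and cell division, in most cases as a dimer with a DP protein. E2F1, E2F2 and E2F3 are known mainly as activators, E2F4 and E2F5 as repressors that act with pocket proteins, E2F6 as a repressor that works without pocket proteins in a Polycomb complex, and E2F7 and E2F8 as atypical repressors that need no DP partner. The pocket proteins RB1, RBL1 and RBL2 (p130) bind E2F proteins and hold target genes silent until cyclin-dependent kinases phosphorylate them. RB1 prefers the activators, while RBL1 and RBL2 prefer E2F4 and join it in the DREAM complex, which represses cell cycle genes in resting cells. Several E2F genes are themselves E2F targets, so the family regulates its own transcription. Loss or inactivation of RB1 and extra copies of E2F3 are known events in bladder cancer. RNA-seq reads transcript levels only, so neither phosphorylation nor SUMO conjugation of these proteins was measured.

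Since several members are known E2F targets, their promoters were searched for words that E2F proteins are known to bind. The 100 bases before the RefSeq transcription start (GRCh38.p14) are shown for 4 members that hold an E2F word close to the start and for 2 that hold none. The words searched were TTTCCCGC, TTTCGCGC, TTTGCCGC and TTTGGCGC on both strands, and capitals mark a word or its reverse complement. Each sequence reads 5′ to 3′ on the strand of the gene.
E2F1, chr20:33686386-33686485, minus strand: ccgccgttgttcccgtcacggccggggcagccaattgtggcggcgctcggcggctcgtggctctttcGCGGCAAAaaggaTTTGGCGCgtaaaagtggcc
E2F2, chr1:23531234-23531333, minus strand: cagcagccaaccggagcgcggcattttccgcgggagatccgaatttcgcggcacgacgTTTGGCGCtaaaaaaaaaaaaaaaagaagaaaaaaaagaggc
E2F3, chr6:20401779-20401878, plus strand: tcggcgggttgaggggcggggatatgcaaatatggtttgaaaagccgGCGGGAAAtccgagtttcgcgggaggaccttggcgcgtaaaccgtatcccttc
RBL1, chr20:37095998-37096097, minus strand: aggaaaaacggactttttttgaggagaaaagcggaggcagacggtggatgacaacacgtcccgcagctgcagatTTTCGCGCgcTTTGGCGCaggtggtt
E2F4, chr16:67192055-67192154, plus strand: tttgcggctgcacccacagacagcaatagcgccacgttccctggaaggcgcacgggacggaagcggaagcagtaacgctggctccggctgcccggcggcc
E2F6, chr2:11466162-11466261, minus strand: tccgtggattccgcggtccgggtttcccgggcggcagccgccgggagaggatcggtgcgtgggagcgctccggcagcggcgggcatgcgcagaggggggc
The words lay at -33 to -26 and -20 to -13 from the start in E2F1, at -42 to -35 in E2F2, at -53 to -46 in E2F3, and at -26 to -19 and -16 to -9 in RBL1. Of the 10 members, 8 matched an entry of 300 bases in the RefSeq table. The RB1 entry lies within the gene and far from its annotated start, so nothing was read from it, and 4 of the other 7 genes held a word. E2F3 has a second promoter in the table (chr6:20403364-20403663), which was searched too and held none. E2F7 had an entry without a word, and E2F5 and E2F8 were not matched. Among all 35116 promoters of the table, 1164 (3.31%) held a word. This share is per promoter, while a gene was counted if any of its promoters held a word. The entries of the 7 genes had 58.3% to 77.3% G and C, and the share was not taken at equal G and C content. A match describes the letters of the sequence and does not show binding, and no match says only that these words are not in the window.

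Some facts of the whole data set bear on every value that follows. The relative depth of the samples ranged from 0.945 to 1.208 and overlapped between groups, and no gene had an equal value above 0 in any pair of samples. The keratins of T24 cells were high, with KRT18 at 258.6 RPKM in shRNA-NC and 137 in shRNA-UBC9. Of 7 epithelial and T24 markers, 4 fell, all of them keratins, beside 18.0% of all genes tested. CD44 was the 1 that rose, beside 18.8% of all genes tested. The epithelial marker EPCAM was low, with means of 0.6576 RPKM for the control hairpin and 1.505 for the UBC9 hairpin. The EPCAM groups overlapped, and its change upward did not pass the test (log2 fold change 0.996, limma adjusted p = 0.0984). Summed markers of blood cells lay between 0.6573 and 1.753 RPKM in shRNA-NC and between 0.7516 and 1.73 in shRNA-UBC9, and those of fibroblasts between 0.9825 and 1.33 and between 0.8817 and 1.305. Of the 2 fibroblast markers high enough to test, COL1A1 rose (log2 fold change 0.95, limma adjusted p = 0.0276) and PDGFRB fell (-1.48, adjusted p = 0.00325). The endothelial list summed to between 2.635 and 3.256 and to between 0.3377 and 1.074, almost all of it from CDH5. The part of these differences in the results was not tested.

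After knockdown of UBC9, the transcripts of E2F3, E2F4 and RBL1 fell and that of E2F6 rose, while the other 6 members did not pass the test. A gene was called with an adjusted p below 0.05 in limma, adjusted over all 12428 genes tested. Of the 10 members, 1 was called higher, against 18.8% of all genes tested, and 3 were called lower, against 18.0% of all genes tested. No member was a DEG, which also needs a |log2 fold change| above 1, against 7.89% of all genes tested. The groups did not overlap, with every shRNA-UBC9 sample lower, for E2F2, E2F3, E2F4, E2F8 and RBL1, 5 of 10 members, against 25.4% of all genes tested. E2F6 was the single member with every shRNA-UBC9 sample higher, against 25.7% of all genes tested. The median log2 fold change of the members was -0.32, with 7 of 10 below 0, beside 0.005 and 6144 of 12428 for all genes tested. With 10 genes, the called shares of 10% and 30% stand on 1 and 3 genes, and with 3 samples per group the smallest p of an exact permutation test is 0.1 for any of them.

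**Figure D1:**
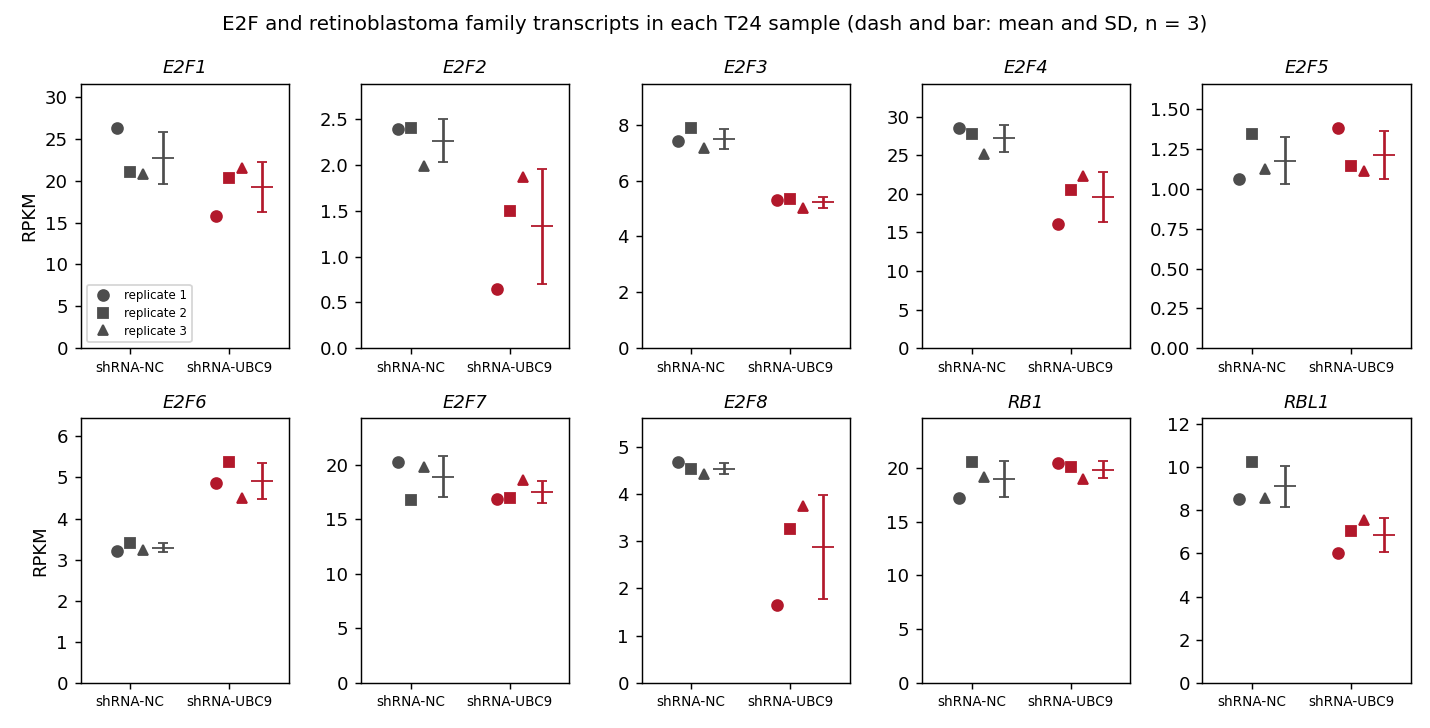
RPKM of the 10 member genes in each sample, with shRNA-NC in grey and shRNA-UBC9 in red, 1 symbol per replicate number, and the mean and SD (n = 3) as a dash and bar at the right of each group. Each axis starts at 0 and has its own scale. The shRNA-UBC9 samples lie below all shRNA-NC samples for E2F2, E2F3, E2F4, E2F8 and RBL1 and above them for E2F6.

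Among the activators, E2F3 was the one that passed the test. E2F3 (chr6:20401879-20493714, GRCh38 as for all positions) was at 7.422, 7.895 and 7.176 RPKM in shRNA-NC and at 5.317, 5.331 and 5.003 in shRNA-UBC9. The 3 shRNA-UBC9 samples were nearly equal, and all lay well under the shRNA-NC range. The mean RPKM (± SD, n = 3) fell from 7.5 ± 0.365 to 5.22 ± 0.186, which is -0.51 on the log2 scale (SE 0.085, 95% interval -0.71 to -0.32, limma adjusted p = 0.0027). The call held without any 1 of the 6 samples, with adjusted p between 0.00476 and 0.0118. E2F3 has long and short isoforms from separate promoters, E2F3a and E2F3b, which a gene-level RPKM cannot tell apart.

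E2F1, the activator also known for its part in apoptosis, was the most abundant of the 3. E2F1 (chr20:33675477-33686385) was at 26.32, 21.09 and 20.77 RPKM in shRNA-NC and at 15.82, 20.32 and 21.53 in shRNA-UBC9. Only replicate 1 of shRNA-UBC9 was clearly low, and the groups overlapped. The log2 fold change was -0.24 (95% interval -0.57 to 0.08, limma adjusted p = 0.212), and the interval reached down to 0.674-fold of the control. It was -0.11 without replicate 1 of shRNA-UBC9 and -0.13 without replicate 1 of shRNA-NC.

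E2F2 (chr1:23506438-23531233), the least abundant activator, was at 2.394, 2.407 and 1.993 RPKM in shRNA-NC and at 0.6403, 1.493 and 1.864 in shRNA-UBC9. The groups did not overlap, but the shRNA-UBC9 samples differed from each other by more than the groups did at their nearest. Its log2 fold change of -0.83 was the largest decrease among the members by size and did not pass the test (95% interval -1.57 to -0.1, limma adjusted p = 0.0749). Replicate 1 of shRNA-UBC9 was at 38.2% of the mean of the other two, and the log2 fold change was -0.41 without it. Without replicate 3 of shRNA-UBC9, E2F2 passed the test with -1.12 and an adjusted p of 0.0224, within a range of 0.0224 to 0.175 over all alternatives.

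The repressors E2F4 and E2F6 moved in opposite directions. E2F4 (chr16:67192155-67198918), the E2F of the DREAM complex, was at 28.55, 27.76 and 25.17 RPKM in shRNA-NC and at 16.05, 20.43 and 22.3 in shRNA-UBC9. The groups did not overlap, and replicate 1 of shRNA-UBC9 was the lowest sample. The mean fell from 27.2 ± 1.77 to 19.6 ± 3.21 RPKM, a log2 fold change of -0.48 (SE 0.128, 95% interval -0.77 to -0.19, limma adjusted p = 0.0203). The call was lost without replicate 1 (adjusted p = 0.0682) or replicate 2 (adjusted p = 0.0563) of shRNA-NC, within a range of 0.0117 to 0.0682 over all alternatives. Without replicate 1 of shRNA-UBC9 it held, with a log2 fold change of -0.34 (adjusted p = 0.0267).

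E2F6 (chr2:11444375-11466177) was at 3.221, 3.415 and 3.233 RPKM in shRNA-NC and at 4.855, 5.366 and 4.496 in shRNA-UBC9. Every shRNA-UBC9 sample was above every shRNA-NC sample by more than the spread of the control samples. The mean rose from 3.29 ± 0.108 to 4.91 ± 0.437 RPKM, 1.47-fold on the log2 scale used, with a log2 fold change of 0.56 (SE 0.099, 95% interval 0.33 to 0.79, limma adjusted p = 0.00354). This call held without any 1 of the 6 samples, with adjusted p between 0.00528 and 0.0191. The promoter of E2F6 shown above held none of the E2F words, as did that of E2F4, which fell.

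E2F5 (ENSG00000133740) had the lowest mean of the members in both groups. It was at 1.063, 1.344 and 1.127 RPKM in shRNA-NC and at 1.385, 1.144 and 1.112 in shRNA-UBC9. The groups overlapped, and the log2 fold change was 0.04 (95% interval -0.32 to 0.4, limma adjusted p = 0.861), with a sign that changed under other scalings. Its exons share 997 bases with RBIS on the other strand, listed as C8orf59 at 9.062 to 13.07 RPKM. The use of strand in the counting is not stated, so the E2F5 level is uncertain. Exons of RBL1 share 213 bases with a long non-coding RNA on the other strand, and those of E2F8 share 7 with CSRP3-AS1. The same limit holds for these members.

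The atypical members E2F7 and E2F8 had unequal spreads. E2F7 (chr12:77021248-77065569) was at 20.23, 16.79 and 19.8 RPKM in shRNA-NC and at 16.86, 17 and 18.66 in shRNA-UBC9. The groups overlapped, and the log2 fold change was -0.11 (95% interval -0.34 to 0.12, limma adjusted p = 0.42), or -0.08 without replicate 1 of shRNA-UBC9 and -0.06 without replicate 1 of shRNA-NC. E2F8 (chr11:19224063-19241620) was at 4.669, 4.533 and 4.419 RPKM in shRNA-NC and at 1.648, 3.263 and 3.749 in shRNA-UBC9. The 3 control samples of E2F8 were nearly equal, all shRNA-UBC9 samples were lower, and replicate 1 was at 47% of the mean of the other two. The log2 fold change of E2F8 was -0.71 (SE 0.259, 95% interval -1.31 to -0.12, limma adjusted p = 0.0619), which did not pass the test. E2F8 passed without replicate 1 of shRNA-UBC9 (-0.37, adjusted p = 0.0311) and without its replicate 3 (-0.94, adjusted p = 0.0207), within a range of 0.0207 to 0.145 over all alternatives.

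Among the pocket protein members, RBL1 passed the test and RB1 did not, and their changes were not tested against each other. RB1 (chr13:48303744-48599436), the retinoblastoma tumour suppressor, was at 17.17, 20.49 and 19.15 RPKM in shRNA-NC and at 20.48, 20.04 and 18.93 in shRNA-UBC9. The groups overlapped, and the log2 fold change was 0.07 (95% interval -0.14 to 0.28, limma adjusted p = 0.594), so changes beyond 0.905-fold and 1.21-fold lay outside the interval. RBL1 (chr20:36996349-37095997) was at 8.531, 10.21 and 8.582 RPKM in shRNA-NC and at 5.999, 7.031 and 7.547 in shRNA-UBC9. The RBL1 groups did not overlap, and the mean fell from 9.11 ± 0.954 to 6.86 ± 0.788 RPKM, a log2 fold change of -0.41 (SE 0.117, 95% interval -0.67 to -0.14, limma adjusted p = 0.028). Of the 4 calls, that of RBL1 was lost most often when 1 sample was left out, namely without replicate 2 (adjusted p = 0.0812) or 3 (0.0588) of shRNA-NC and without replicate 1 (0.0612) or 2 (0.0613) of shRNA-UBC9, within a range of 0.0178 to 0.0812 over all alternatives.

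**Figure D2:**
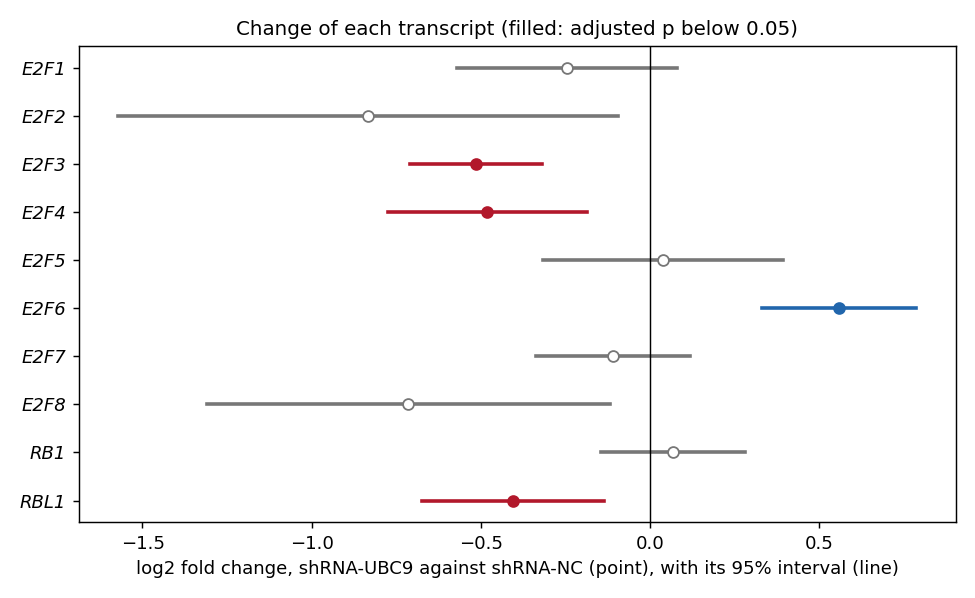
Log2 fold change of each member, shRNA-UBC9 against shRNA-NC, on the log2(RPKM + 0.1) scale (points) with its 95% interval (lines, n = 3 per group), and filled points for an adjusted p below 0.05. E2F3, E2F4 and RBL1 lie below 0, E2F6 lies above it, and the intervals of E2F2 and E2F8 are the widest.

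RPKM is per length, so levels can be set side by side between genes. In shRNA-NC the order of mean RPKM was E2F4 (27.2), E2F1 (22.7), RB1 (18.9), E2F7 (18.9), RBL1 (9.11), E2F3 (7.5), E2F8 (4.54), E2F6 (3.29), E2F2 (2.27) and E2F5 (1.18). The ranges of E2F1 and E2F4 overlapped, as did those of E2F7 and RB1, and the other neighbours did not overlap. In shRNA-UBC9 the 4 highest, RB1 (19.8), E2F4 (19.6), E2F1 (19.2) and E2F7 (17.5), each overlapped the next. Below them, RBL1 (6.86) stood apart from E2F3 (5.22), E2F3 and E2F6 (4.91) overlapped, E2F8 (2.89) lay under E2F6, and E2F2 (1.33) overlapped both E2F8 and E2F5 (1.21). Thus E2F6 lay well under E2F3 in shRNA-NC and overlapped its range in shRNA-UBC9.

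The summed RPKM of E2F1 to E2F8 was 93.86, 85.23 and 83.69 in shRNA-NC and 62.58, 74.35 and 78.72 in shRNA-UBC9, with no overlap. The activators E2F1 to E2F3 made up 35.8% to 38.5% of this sum in shRNA-NC and 34.8% to 36.5% in shRNA-UBC9, and the shares of E2F4 to E2F6 and of E2F7 with E2F8 overlapped between groups as well. Within the class of E2F4 to E2F6, E2F6 made up 3.43% to 4.01% of the sum of all 8 in shRNA-NC and 5.71% to 7.76% in shRNA-UBC9. The ratio of E2F4 to E2F6 was 8.863, 8.13 and 7.785 in shRNA-NC and 3.306, 3.808 and 4.96 in shRNA-UBC9, and the ratio of E2F3 to E2F6 was 2.219 to 2.312 and 0.9934 to 1.113. The ratio of RB1 to RBL1 was 2.012, 2.008 and 2.232 in shRNA-NC and 3.413, 2.85 and 2.509 in shRNA-UBC9. These pairs were picked after their values had been seen, so they are given as descriptions with no test.

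By the mean absolute difference over the 6 samples, on log2 values centred on the shRNA-NC mean, the tested genes most like E2F6 were ZFAND2A (0.022), TRIM56 (0.028) and SLC11A2 (0.034). Those most like E2F2, the member with the lowest log2 fold change, were BCL2 (0.101), E2F8 (0.106) and CDC20 (0.108). Both E2F2 and E2F8 thus share the low value in replicate 1 of shRNA-UBC9.

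Of the 4 partners listed, TFDP3 was too low to test, and 2 of the other 3 fell (66.7%), beside 18.0% of all genes tested. This share stands on 3 genes. RBL2, the remaining pocket protein, was at 11.67, 12.82 and 13.94 RPKM in shRNA-NC and at 7.683, 6.649 and 6.69 in shRNA-UBC9. Its groups lay far apart, and it fell from 12.8 ± 1.13 to 7.01 ± 0.586 RPKM (log2 fold change -0.86, SE 0.103, limma adjusted p = 0.000617). TFDP1, the main DP partner, was at 51.46, 50.88 and 49.28 RPKM in shRNA-NC and at 35.41, 45.29 and 47.4 in shRNA-UBC9, with a log2 fold change of -0.25 that did not pass the test (limma adjusted p = 0.121) and was -0.12 without replicate 1 of shRNA-UBC9. TFDP2 fell with a log2 fold change of -0.55 and an adjusted p of 0.0479, a call lost in 5 of 6 fits that left out 1 sample, and kept without replicate 1 of shRNA-UBC9. RB1 made up 45.9% to 47.1% of the summed RPKM of RB1, RBL1 and RBL2 in shRNA-NC and 57.1% to 59.9% in shRNA-UBC9, while RBL2 went from between 29.4% and 33.4% to between 19.7% and 22.5%.

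Upstream of the pocket proteins, 2 of 13 tested cyclin, CDK and related genes rose (15.4%) and 4 fell (30.8%), beside 18.8% and 18.0% of all genes tested, with a median log2 fold change of 0.13. CCND3, a D-type cyclin that activates CDK4 and CDK6, rose from 8.71 ± 1.08 to 16.4 ± 1.27 RPKM (0.91, limma adjusted p = 0.000718), and CDK7, part of the CDK-activating kinase, rose by 0.29 (adjusted p = 0.0296). CCNE2 (-0.83, adjusted p = 0.000823), CCNA2 (-0.55, 0.0088) and CCND1 (-0.44, 0.0255) fell. The other kinases and cyclins looked at by name were CCNE1 (0.17, adjusted p = 0.294), CDK2 (-0.04, 0.769), CDK4 (-0.3, 0.0557) and CDK6 (0.34, 0.091), none of which passed. CDK4 passed with quantile normalization, median scaling or TPM rescaling and without replicate 3 of shRNA-UBC9, and CDK6 passed without replicate 2 of shRNA-NC. Under these scalings, in the order given, 2676, 2574 and 2455 of all genes tested fell, beside 2237 in the main fit. The CDK7 call was lost without replicate 1 or 3 of shRNA-NC or replicate 1 or 2 of shRNA-UBC9, each leaving 1 gene called higher, and that of CCND1 without replicate 1 or 2 of shRNA-NC or replicate 2 of shRNA-UBC9.

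Of the 7 CDK inhibitors, 2 rose (28.6%) and 3 fell (42.9%), beside 18.8% and 18.0% of all genes tested. CDKN1A (p21), which inhibits CDK2 complexes and is a well-known p53 target, was at 9.48, 8.719 and 8.914 RPKM in shRNA-NC and at 45.34, 36.91 and 33.21 in shRNA-UBC9. All shRNA-UBC9 samples were several-fold above the controls, and the mean rose from 9.04 ± 0.395 to 38.5 ± 6.22 RPKM (log2 fold change 2.07, SE 0.12, limma adjusted p = 2.18e-05). CDKN2D (p19) rose by 0.54 (adjusted p = 0.0081). CDKN2A, the locus of p16 and ARF and itself an E2F-responsive gene, fell from 11.6 ± 1.65 to 4.45 ± 0.71 RPKM (-1.37, adjusted p = 0.000397), and gene-level values cannot tell the p16 and ARF transcripts apart. CDKN2C (-0.61, adjusted p = 0.0223) and CDKN2B (-0.71, 0.03) fell, and both calls were lost without replicate 1 or 3 of shRNA-NC or replicate 2 of shRNA-UBC9, leaving 1 gene called lower. CDKN2B was also lost without replicate 3 of shRNA-UBC9.

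The MuvB core is shared by DREAM and by the later activating complexes, in which B-MYB and FOXM1 join it. Of the 7 MuvB core, B-MYB and FOXM1 genes, 1 rose (14.3%) and 3 fell (42.9%), beside 18.8% and 18.0% of all genes tested. MYBL2 (B-MYB), a classical E2F target, was at 72.12, 69.59 and 56.03 RPKM in shRNA-NC and at 22.27, 31.95 and 38.18 in shRNA-UBC9. Its groups did not overlap, and it fell with a log2 fold change of -1.12 (SE 0.191, limma adjusted p = 0.00301). FOXM1, the activator of mitotic genes, fell by 0.53 on the log2 scale (adjusted p = 0.0277), a call lost without replicate 1 or 2 of either group. RBBP4, a histone-binding subunit of MuvB, fell (-0.45, adjusted p = 0.00475) and LIN37, a DREAM subunit, rose (0.41, 0.0106).

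Genes of the Polycomb complex of E2F6 mostly did not pass the test. Of 12 tested, 1 rose and 1 fell (8.33% each), beside 18.8% and 18.0% of all genes tested. HDAC1, a histone deacetylase of several complexes, fell from 62.5 ± 1.3 to 33.9 ± 4.24 RPKM (-0.89, limma adjusted p = 0.000521). RNF2, the ubiquitin ligase of Polycomb repressive complex 1, rose by 0.28 (adjusted p = 0.045). The RNF2 call was lost when any 1 sample was left out, with adjusted p between 0.0628 and 0.118, and under each other scaling. The median log2 fold change of this list was -0.02. Of 15 corepressor genes associated with RB1, 1 rose (6.67%) and 4 fell (26.7%), beside 18.8% and 18.0% of all genes tested. HDAC1 was counted in the Polycomb list and not in this one. KDM5A, an H3K4 demethylase, rose (0.43, adjusted p = 0.00822). Those that fell included the methyltransferase SUV39H2 (-0.51, 0.0108), CTBP1 (-0.49, 0.00896) and HDAC3 (-0.32, 0.0156). The count lower was 2 without replicate 3 of shRNA-NC and 7 with quantile normalization. Of all genes tested, 1401 and 2676 fell in these fits, beside 2237 in the main fit. Of 10 genes tied to the turnover of E2F and RB family proteins or their regulators, 5 fell (50%) and none rose. Over all genes tested, 18.0% fell and 18.8% rose. Those of the list that fell included CCNF (-0.9, adjusted p = 0.00342), the substrate receptor for several E2F proteins. CDC20 (-0.76, 0.0198), an activator of the anaphase-promoting complex, and CKS1B (-0.54, 0.00333), a cofactor of the SKP2 ligase, fell too. Without replicate 1 of shRNA-NC 3 genes of this list fell, and CDC20 also lost its call without replicate 2 of shRNA-NC.

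Lower values were widespread among the known target genes of the family. Of 60 G1/S genes known as E2F targets, 36 (60%) fell and none rose, beside 18.0% and 18.8% of all genes tested. The median log2 fold change was -0.47, with 57 of 60 below 0, beside 0.005 and 6144 of 12428 for all genes tested. The groups did not overlap, with shRNA-UBC9 lower, for 42 of the 60, beside 25.4% of all genes tested. UNG, a uracil DNA glycosylase, fell from 17.6 ± 1.41 to 5.88 ± 1.29 RPKM (-1.59, limma adjusted p = 0.000315), and the checkpoint kinase CHEK1 from 9.12 ± 0.677 to 4.48 ± 0.406 (-1.01, 0.000323). The E2F words were found in the promoters of 25 of 51 matched G1/S genes (49%). The called lower count was 30 without replicate 1 of shRNA-UBC9 and lay between 26 and 38 when each sample was left out.

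Of 41 G2/M genes described as DREAM targets, 39 (95.1%) fell and none rose, beside 18.0% and 18.8% of all genes tested. All 41 had no overlap between groups, with shRNA-UBC9 lower, beside 25.4% of all genes tested. Their median log2 fold change was -0.61. KIF20A, a kinesin of cell division, fell from 55.3 ± 1.57 to 22.7 ± 5.14 RPKM (-1.3, limma adjusted p = 0.000622), NUSAP1, a spindle protein, from 76.3 ± 7.69 to 32.4 ± 3.58 (-1.24, 0.000208), and CENPM, a centromere protein, from 18.9 ± 2.83 to 8.68 ± 2.47 (-1.15, 0.00368). The E2F words were found in 3 of 33 matched promoters of this list (9.09%), and 37 genes fell without replicate 1 of shRNA-UBC9. CCNE1, CCNE2, CCNA2, CDC25A, CDK1, CCNF and CDC20 stand in more than 1 list and were counted in each. In bulk RNA, fewer cells in cycle and less of these transcripts per cycling cell cannot be told apart, and whether the cultures for RNA-seq were synchronised is not given in the sources used here.

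**Figure D3:**
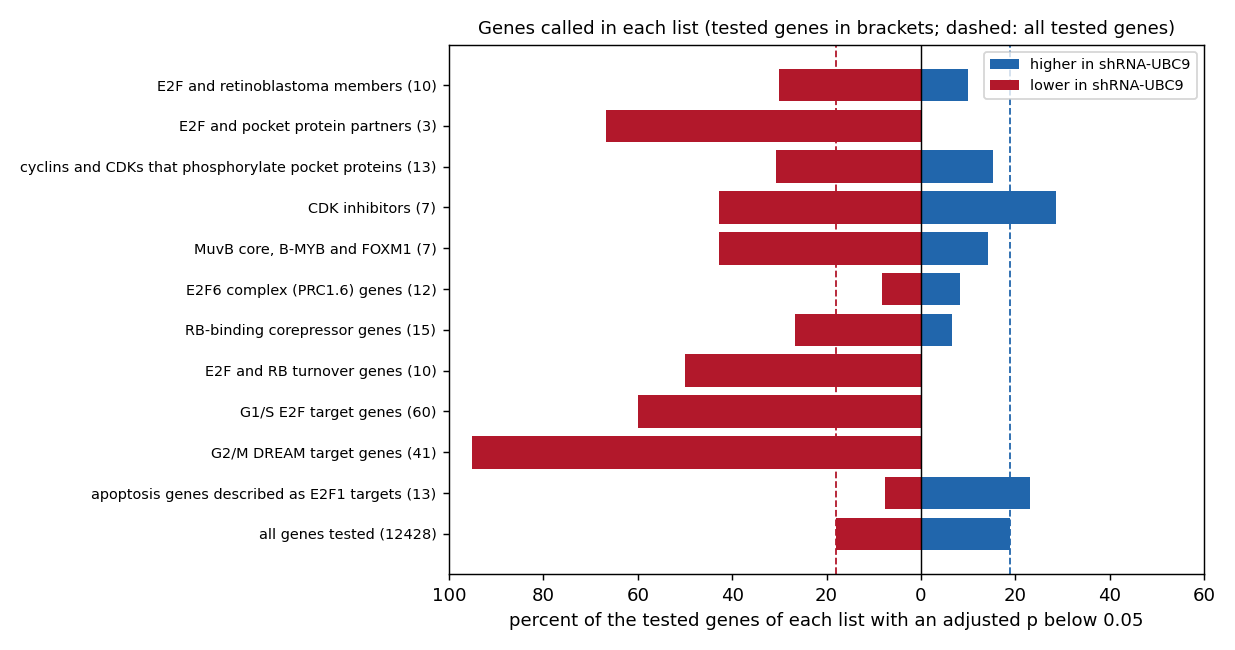
Percent of the tested genes of each list with an adjusted p below 0.05, with genes lower in shRNA-UBC9 to the left in red and higher genes to the right in blue, and the number tested in brackets. Dashed lines give the percents over all 12428 genes tested, 18.0% lower and 18.8% higher. The G2/M list (95.1%), the 3 partners (66.7%) and the G1/S list (60%) reach furthest to the left.

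Apoptosis genes described as E2F1 targets did not move together, with 3 of 13 higher (23.1%) and 1 lower (7.69%), beside 18.8% and 18.0% of all genes tested. BBC3 (PUMA), a BH3-only protein, rose from 1.93 ± 0.365 to 5 ± 1.11 RPKM (1.32, limma adjusted p = 0.00154), and CASP8, an initiator caspase, rose by 0.41 (adjusted p = 0.0263). APAF1, the scaffold of the apoptosome, fell from 7.16 ± 0.733 to 3.81 ± 0.328 RPKM (-0.89, adjusted p = 0.000718). The CASP8 call was lost without replicate 1 or 3 of shRNA-NC or replicate 1 or 2 of shRNA-UBC9, and 2 genes of this list fell without replicate 2 of shRNA-NC or replicate 3 of shRNA-UBC9. Among SUMO conjugation genes, both subunits of the SUMO-activating enzyme fell, SAE1 (-0.5, limma adjusted p = 0.00532) and UBA2 (-0.32, 0.0278). SUMO2 rose (0.28, 0.019), a call lost without replicate 1 or 3 of shRNA-NC or replicate 2 of shRNA-UBC9, and 2 genes of the list rose without replicate 3 of shRNA-UBC9. The UBA2 call was lost in 5 of 6 fits that left out 1 sample.

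Replicate 1 of shRNA-UBC9 stood apart within its group. It was the lowest of the 6 samples for E2F1, E2F2, E2F4, E2F8 and RBL1, 5 of 10 members, beside 25.5% of all genes tested, and for 58 of 60 G1/S genes and 35 of 41 G2/M genes. On the log2 scale, the median difference of the G1/S genes from the shRNA-NC mean was -0.69 in replicate 1, -0.39 in replicate 2 and -0.29 in replicate 3, and that of the G2/M genes was -0.83, -0.58 and -0.48. The corresponding medians over all genes tested lay between -0.03 and 0.02 in every sample. E2F3, E2F6 and RB1 did not share this step, with replicate 1 at 103%, 98.5% and 105% of the mean of the other two. The part of this sample in the results was not tested beyond the fits that leave it out. Without it the log2 fold changes were -0.53 for E2F3, 0.56 for E2F6, 0.04 for RB1 and -0.31 for RBL1, and those of the other members but E2F5 are given with their values.

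**Figure D4:**
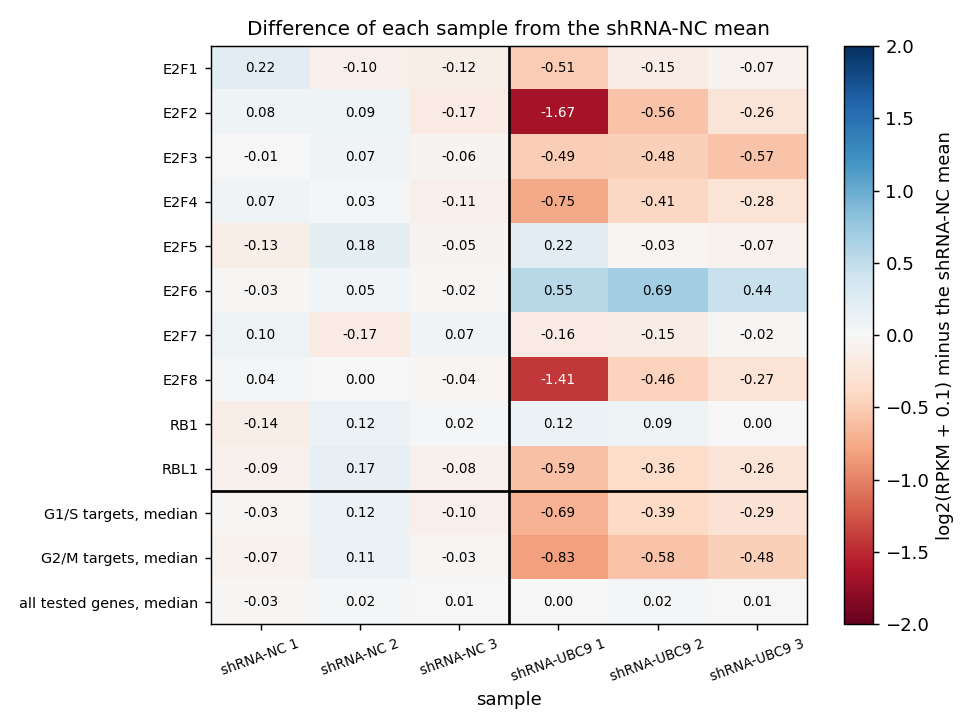
Difference of each sample from the shRNA-NC mean, log2(RPKM + 0.1), for the 10 members and for the medians of the G1/S targets, the G2/M targets and all tested genes, with red for lower and blue for higher. Replicate 1 of shRNA-UBC9 holds the lowest values of E2F2 (-1.67) and E2F8 (-1.41), a step that the E2F3 and E2F6 values do not show.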

How the data were processed

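RNA was extracted from T24 cells with shRNA-NC (n = 3) or shRNA-UBC9 (n = 3), and polyA libraries were made with the TruSeq kit and sequenced on an Illumina HiSeq X system. The authors trimmed reads, mapped them to GRCh38 (hg38 in the labels) with the CLC Biomedical Genomics Workbench at default settings and deposited RPKM values for each sample. The annotation, the handling of multi-mapped reads and the use of strand are not given in the sources used here. All 7 annotated E2F pseudogenes were listed at 0 in every sample. No deposited column of sample values was left unused (0).

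A gene was kept where 3 or more of the 6 samples reached an RPKM of 0.5 (12428 of 58174 genes), and values were tested as log2(RPKM + 0.1), a scale that understates changes of low genes. The test was limma 3.58.1 (lmFit, eBayes with intensity trend) in R 4.3.3, with Benjamini-Hochberg adjustment over all genes kept. Adjusted p-values in the text come from limma. The limma fitting step was tested on simulated data. Tables and figures were made in Python 3.11.15 (matplotlib 3.10.9, numpy 2.4.6, pandas 2.3.3).

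Absolute depth is unknown, and relative depth was estimated from the spacing of low RPKM values. The members and the 11 pathway lists, written from general knowledge, were chosen with earlier results of these data known. Named were all members, up to 3 called genes with the largest changes each way per pathway list, 13 partners and regulators fixed by name, and the 3 genes nearest to the highest and lowest member. Marker genes could also be named. The level of the transcript targeted by the shRNA and a few genes that the rule would name are not reported here. Gene positions are those of GENCODE release 44 (GRCh38), and promoters come from RefSeq (GRCh38.p14). A comparison of genes with and without E2F words over all genes was void, since 73.9% had a promoter entry. Alternatives were other pseudocounts, filters, scalings and thresholds, no intensity trend, a replicate block and leaving out each sample.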

Additional observations from a re-analysis of the deposited data

How the results depend on the processing

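E2F3 and E2F6 kept their direction and call in all 15 alternative fits. With unadjusted p below 0.05 and a fold above 2, 661 genes were higher and 342 lower, and as DEGs 646 and 335, with 0 members in either direction by both rules. Leaving out each sample gave between 1633 and 2180 genes higher and between 1401 (without replicate 3 of shRNA-NC) and 2003 lower, and between 1 (without replicate 2 of shRNA-NC) and 5 (without replicate 3 of shRNA-UBC9) members lower. Without a filter on low values RBL1 lost its call (adjusted p = 0.0552, range 0.0178 to 0.0812 over its alternatives), 1 CDK inhibitor and 3 turnover genes fell, and with RPKM of at least 1 in every sample E2F2 was not tested. E2F5 changed sign with quantile normalization (-0.048), median scaling (-0.002), without replicate 1 of shRNA-NC (-0.025) and without replicate 1 of shRNA-UBC9 (-0.051), with up to 0.132 when another sample was left out. RB1 ranged from -0.00045 (without replicate 1 of shRNA-NC) to 0.127 and CDK2 from -0.113 to 0.041 (without replicate 1 of shRNA-UBC9), and none of these values was called. The cause of these changes was not tested. Of 645 alternative fits of 43 other named genes, 572 gave the same call, 67 lost it and 5 gained one. Replicate numbers 1 to 3 occur in both groups. The correlations of deviations of same-numbered samples were -0.367, 0.073 and -0.17, and replicate 1 of shRNA-NC went best with replicate 3 of shRNA-UBC9 (0.526). The deviations were centred within each group of 3, so these values depend on each other. They cannot show whether same-numbered samples were prepared together. A replicate block left 1749 genes higher and 1625 lower, with 1 member higher and 3 lower. Absolute depth is unknown, so the counting error of low genes such as E2F2 and E2F5 could not be given.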
